A study of Mus musculus with 33 samples.

Results

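The comparison sets 5 libraries from mice given antibiotics and morphine (Abx_Morphine) against 6 libraries from mice that got neither (H2O_Saline). Its 11 libraries were taken by their labelled group from 33 bulk RNA-seq libraries of nucleus accumbens, each from polyadenylated RNA of C57BL/6J mice. Antibiotic mice were raised conventionally and then drank a mix of vancomycin at 0.5 mg/mL, bacitracin at 0.5 mg/mL, neomycin at 2 mg/mL and the antifungal pimaricin at 1.2 µg/mL for 2 weeks before, and all through, the experiment. Morphine sulfate was injected at 20 mg/kg per day for 7 days, and the other mice are labelled saline. The H2O_Saline mice drank water, were equally conventionally raised and were of the same age range, 7 to 9 weeks. To set the joint effect against its parts, 6 Abx_Saline libraries (antibiotics alone) and 5 H2O_Morphine libraries (morphine alone) were each compared with H2O_Saline as well. Another 11 libraries of germ-free mice stood in none of these contrasts and entered the estimate of spread and the filter on low counts. Drinks were assigned by cage and the labels do not give a mouse's cage, so cage and drink cannot be told apart. No label says that each library is 1 mouse or names a batch, so the p-values measure the spread between these samples.

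The nucleus accumbens is the ventral part of the striatum, built mostly of GABAergic medium spiny neurons that receive dopamine and carry opioid receptors and opioid peptides. Morphine acts on the µ-opioid receptor, repeated dosing is known to activate the hypothalamic-pituitary-adrenal axis, and the glucocorticoids it releases switch on a known set of genes in glia and vessels through the glucocorticoid receptor. Gut bacteria make short-chain fatty acids, bile acid and tryptophan products, and microglia, the resident macrophages of the brain, are known to depend on a gut flora for their mature state.

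Between 9678015 and 12266357 reads per library were assigned to genes in H2O_Saline and between 11123437 and 13701174 in Abx_Morphine. Levels are in CPM, the reads of a gene scaled to a common library total with TMM factors, and are not corrected for gene length. In the first principal component of the 22 conventional libraries (25.2% of the variance), Abx_Morphine lay at 8.0 to 31.1 and H2O_Saline at -25.9 to -0.92, so these groups did not overlap. The libraries Abx_Saline 5 and H2O_Morphine 4 stood apart from their groups, at 31.8 and 21.6, and had the highest summed level of cortical neuron markers (2222 and 1758 CPM) and the lowest of medium spiny neuron markers (6456 and 8229 CPM) among the 22. They belong to neither group of the total effect, but they enter the single effects, the sum, the departure from it and the shared estimate of spread. Without both, 4155 genes were called for the total effect and 14 for the departure, 11 of them among the 16 called with all libraries. As a check of the labelled tissue, the medium spiny neuron markers were abundant in every library and summed to 10513 to 15026 CPM in H2O_Saline and 8999 to 11693 in Abx_Morphine.

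Antibiotics and morphine together changed 3961 of 14602 genes tested (27.1%), of which 1946 rose (13.3%) and 2015 fell (13.8%), at an adjusted p under 0.05 in edgeR's quasi-likelihood test. Most changes were small. The median absolute log2 fold change of the called genes was 0.37, and 206 genes moved more than 2-fold, 143 upward and 63 downward. In 3067 genes (21%) every Abx_Morphine library lay outside the range of the H2O_Saline libraries, with 1498 above it (10.3%) and 1569 below it (10.7%). The largest rise among the genes named here was in Plin4, which glucocorticoids induce, and the 18 falls among 20 microglial genes made that list the one with the highest share of calls among lists of at least 5 genes.

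Either treatment alone moved far fewer genes past the same threshold. Antibiotics alone changed 17 genes (0.116%), 9 higher (0.0616%) and 8 lower (0.0548%), and morphine alone changed 0, although 2223 genes had an unadjusted p under 0.05 for morphine and 1752 for antibiotics. These counts changed with the fit: on the 22 conventional libraries alone they were 210 and 972, DESeq2 gave 100 and 332, and limma voom 187 and 1314. The 17 calls for antibiotics were 4 with neighbouring-tissue covariates and 4 with the replicate number as a block. They were 4 without H2O_Saline 5 or Abx_Saline 4, 5 to 11 without any 1 of H2O_Saline 6, 8 or 9 or Abx_Saline 2, 5 or 6, 30 without Abx_Saline 1 and 31 without Abx_Saline 3. The sum of the single effects also had 0 calls in edgeR, with 2228 genes at an unadjusted p under 0.05 (180 called by DESeq2, 671 by limma voom), but it counts the H2O_Saline libraries 2 times and so is less precise, with a median SE of 0.18 (log2) against 0.11 for the total effect. All these contrasts share the H2O_Saline libraries, so their values are set side by side and not correlated. Over the 1946 genes that rose, the median log2 fold change was 0.40 for the total effect, 0.16 for antibiotics alone, 0.16 for morphine alone and 0.32 for their sum. Over the 2015 that fell it was -0.34, -0.13, -0.11 and -0.24. Because these genes were chosen by their total effect, a sum nearer to 0 is built into the choice.

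The direct test of additivity is the total effect minus the sum, which equals the morphine effect under antibiotics minus that under water. It passed for 16 of 14602 genes (0.11%), 7 with a total above the sum (0.0479%) and 9 with a total below it (0.0616%), and 1157 genes had an unadjusted p under 0.05. The count was 59 on the 22 conventional libraries and 67 with DESeq2. The median SE of this difference was 0.15 on the log2 scale. The 16 called genes had a median absolute departure of 0.69, and the smallest in size was -0.40 (Tufm). Departures well above 1 SE, such as that of Plin4, missed the threshold. For most genes a departure of the size of 1 SE was thus far from detectable. A gene that missed the threshold was not shown to add up, and the low count of calls does not show additivity. The morphine effects under antibiotics and under water share no library, nor do the antibiotics effects under morphine and under saline. Across the 14602 genes the morphine effects had a Pearson r of 0.248 and a Spearman rho of 0.350. For the antibiotics effects these were 0.457 and 0.468. Both are descriptions over genes that share libraries and are not replicates.

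**Figure D1:**
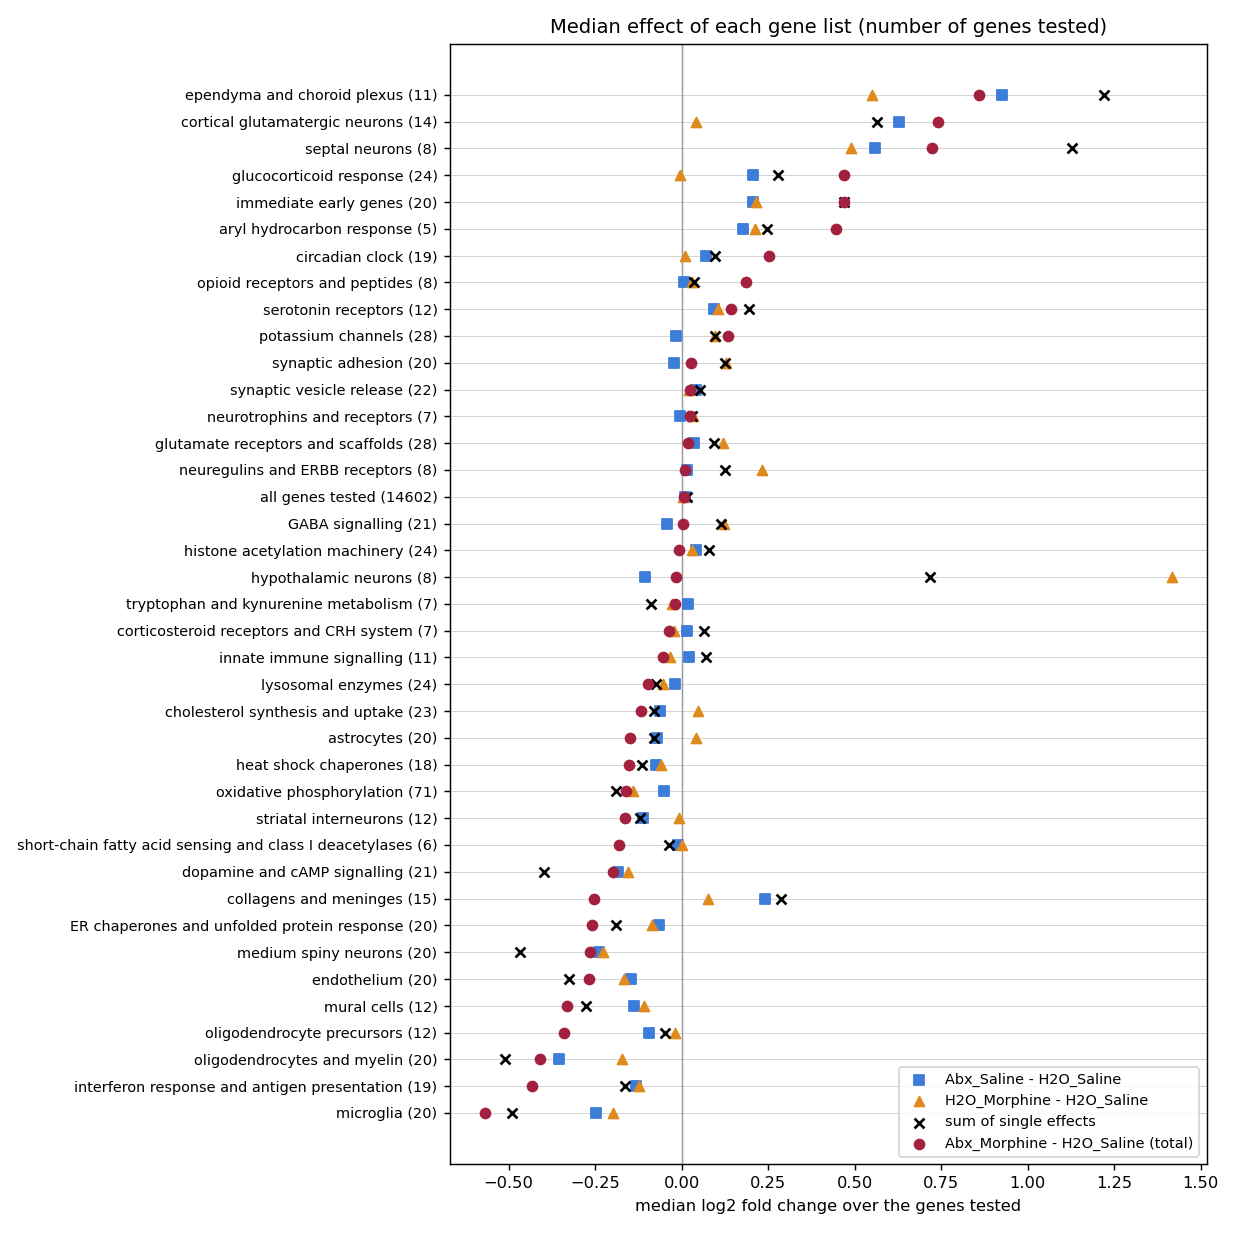
Median log2 fold change of each gene list with at least 5 genes tested (number in brackets), for antibiotics alone (squares), morphine alone (triangles), the sum of both (crosses) and the total effect (circles). Microglia had the lowest total median, -0.57, and the ependymal, cortical and septal lists the highest, while the median over all genes was 0.01.

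Genes that glucocorticoids switch on rose together. Of 24 genes of this list tested, 15 rose and 0 fell, against 13.3% of all genes rising, and the list's medians were 0.47 for the total effect, 0.21 for antibiotics alone, -0.01 for morphine alone and 0.28 for their sum. Plin4, a perilipin that coats lipid droplets, was at 51.2, 47.5, 59.6, 66.6 and 55.6 CPM in Abx_Morphine libraries 1 to 5. In H2O_Saline its lowest, median and highest values were 1.17, 3.05 and 4.45 CPM. The groups were far apart, and the total log2 fold change of 4.22 ± 0.40 (SE) was the largest of any gene named here (adjusted p = 9.00e-09). Antibiotics alone gave 2.52 ± 0.40 for Plin4 (adjusted p = 0.00217) and morphine alone 0.49 ± 0.46 (adjusted p = 0.648). Its 6 Abx_Saline libraries ran from 5.0 to 40.4 CPM, all above the H2O_Saline range and all below the Abx_Morphine range.

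Hif3a, a hypoxia-inducible factor subunit, was at 24.9, 21.6, 29.2, 21.9 and 15.9 CPM under both treatments. Water mice on saline had 3.39, 3.83 and 5.09 CPM as lowest, median and highest, and the groups did not overlap (2.49 ± 0.25, adjusted p = 2.95e-08). Zbtb16, which encodes the zinc-finger factor PLZF, rose from 7.29 ± 2.76 CPM (SD, n = 6) to 28 ± 6.15 (SD, n = 5), a log2 fold change of 1.93. Rasd1, a small GTPase named for its induction by dexamethasone, rose by 1.66 and had passed with antibiotics alone (1.11, adjusted p = 0.00664), as had Plin4 and Hif3a. The sulfotransferase gene Sult1a1 rose by 1.49 (log2), to 20.3 ± 2.34 CPM from 7.16 ± 1.84.

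Fkbp5, a co-chaperone that holds back the glucocorticoid receptor, was at 139.9, 108, 163, 142 and 115 CPM in Abx_Morphine. The H2O_Saline libraries had 59.1, 65.6 and 67.9 CPM as lowest, median and highest, so every double-treated library was above all untreated ones. Its total log2 fold change was 1.05 ± 0.12 (adjusted p = 1.95e-07), while antibiotics alone gave 0.33 (adjusted p = 0.229) and morphine alone -0.06. Sgk1, a kinase that regulates ion channels, was at 145, 219.9, 154, 105 and 111 CPM against 61.4, 81.4 and 113 and rose by 0.81 (adjusted p = 0.00113). Here 3 of 5 libraries were above the untreated range, and Abx_Morphine 2 was the highest. For the receptors themselves no call was made in edgeR, where 27.1% of all genes were called. Of 7 tested genes of the list of corticosteroid receptors and the corticotropin-releasing hormone system 0 passed, with a median of -0.04. At an unadjusted p under 0.05 there was 1, and DESeq2 called 0 and limma voom 1.

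**Figure D2:**
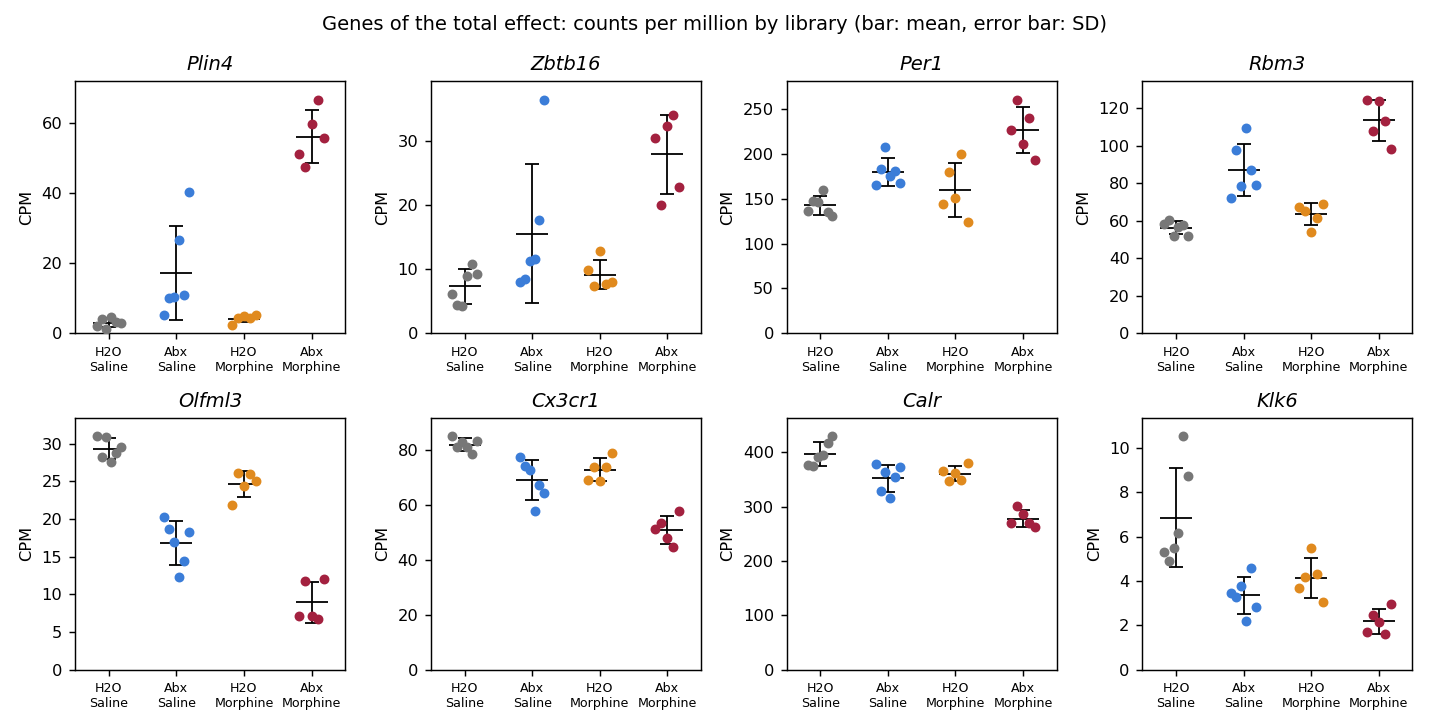
CPM (y axis) of 8 genes in each library of the 4 conventional groups (points), with the group mean (horizontal bar) and SD (error bar). In all 8 genes the 5 Abx_Morphine libraries lie wholly above (Plin4, Zbtb16, Per1, Rbm3) or wholly below (Olfml3, Cx3cr1, Calr, Klk6) the H2O_Saline libraries.

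The RNA-binding proteins that mild cooling induces both rose, against 13.3% of all genes rising. Rbm3, which protects synapses in the cold, was at 124, 108, 124, 113 and 98.2 CPM in Abx_Morphine. Its H2O_Saline values were 51.7, 57.1 and 60.0 CPM (lowest, median, highest), with no overlap. The total effect was 1.02 ± 0.08 (adjusted p = 7.85e-10), and Rbm3 also rose with antibiotics alone (0.64 ± 0.08, adjusted p = 0.000102) but did not pass with morphine alone (0.18, adjusted p = 0.328). Cirbp, the other member, rose by 0.71 in total, to 140.1 ± 15.6 CPM (SD, n = 5) from 85.5 ± 7.18 (SD, n = 6). Heat shock chaperones moved the other way. Of 18 tested, 8 fell and 0 rose, against 13.8% of all genes falling. The medians were -0.15 for the total effect, -0.07 for antibiotics alone, -0.06 for morphine alone and -0.11 for their sum. Hsph1, a large HSP110 chaperone, was at 248, 313, 249.8, 269.6 and 273 CPM against 396, 418 and 479 in H2O_Saline and fell by 0.65 on the log2 scale (adjusted p = 4.64e-06). Chordc1, an HSP90 partner, gave -0.72, Stip1, which links HSP70 to HSP90, -0.32, and Hsf1, the factor that switches heat shock genes on, -0.40. The count was 5 without H2O_Saline 9 or Abx_Morphine 4, 5 with neighbouring-tissue marker levels as covariates and 3 with the replicate number as a block.

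Chaperones of the endoplasmic reticulum (ER) fell with them. The list holds protein-folding genes and the factors that induce them when misfolded protein builds up. Of its genes 11 of 20 fell while 0 rose, against 13.8% of all genes falling. The list's medians were -0.26 for the total effect, -0.07 for antibiotics alone, -0.09 for morphine alone and -0.19 for their sum. Many of these genes carry the ER stress element, CCAAT and CCACG with 9 bases between them, which is a known binding site of NF-Y with ATF6. In the RefSeq table of promoters (GRCm38.p6, from 250 bases before to 50 after each start) this motif, searched on both strands, occurred in 7 of 18 promoters of the list in 39 of 32851 promoters in all (0.119%) and in 17 of 10938 first promoters of the genes tested (0.155%). Shown here are the promoters of the 3 list members with the smallest p for the total effect, with the element in capitals, because they fell together. None of their elements overlap. Creld2 carries the element and fell too. Hspa5, Canx and Dnajc3 carry it and were not called, while Pdia3, Pdia4, Ddit3, Xbp1 and Sdf2l1 fell without it in this window. A link between the element and the fall was not tested.
Calr: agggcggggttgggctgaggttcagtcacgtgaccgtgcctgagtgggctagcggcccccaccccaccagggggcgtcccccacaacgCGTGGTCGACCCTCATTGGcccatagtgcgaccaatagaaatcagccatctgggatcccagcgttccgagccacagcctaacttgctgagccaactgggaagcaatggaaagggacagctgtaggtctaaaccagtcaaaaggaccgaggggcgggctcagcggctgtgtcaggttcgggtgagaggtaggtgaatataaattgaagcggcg
Pdia6: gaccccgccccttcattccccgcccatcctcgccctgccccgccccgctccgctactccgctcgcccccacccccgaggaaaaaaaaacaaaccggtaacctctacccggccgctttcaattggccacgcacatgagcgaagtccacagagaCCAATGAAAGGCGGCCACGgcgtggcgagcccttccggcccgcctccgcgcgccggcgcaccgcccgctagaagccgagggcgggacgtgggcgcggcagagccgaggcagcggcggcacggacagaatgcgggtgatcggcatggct
Hsp90b1: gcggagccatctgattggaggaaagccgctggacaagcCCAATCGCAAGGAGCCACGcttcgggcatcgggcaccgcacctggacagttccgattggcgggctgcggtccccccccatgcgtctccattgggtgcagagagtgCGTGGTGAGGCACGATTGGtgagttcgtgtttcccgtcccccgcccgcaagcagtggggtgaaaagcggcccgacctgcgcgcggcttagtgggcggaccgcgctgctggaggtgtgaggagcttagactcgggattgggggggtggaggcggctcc

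Calr, the calcium-binding chaperone calreticulin (chr8:84846882-84847181, minus strand), has its single element on the strand opposite to the gene. It was at 271, 301, 286, 269.6 and 262 CPM in Abx_Morphine and at 374, 394 and 429.5 CPM (lowest, median, highest) in H2O_Saline, a total effect of -0.52 ± 0.06 (adjusted p = 4.57e-07) with no overlap. Pdia6, a disulfide isomerase (chr12:17266339-17266638, plus strand), was at 79.5, 87.7, 81.4, 82.3 and 82.1 CPM against 110.1, 114 and 137 and changed by -0.52 ± 0.06 (adjusted p = 3.67e-07). Its promoter holds 1 element and that of Hsp90b1, the ER form of HSP90 (chr10:86705395-86705694, minus strand), holds 2, 1 on each strand. Hsp90b1 changed by -0.28 and Xbp1, a transcription factor of the unfolded protein response, by -0.44. For Calr the single effects were -0.17 and -0.14, and neither passed. The summed level of the list was 2250.4 to 2334 CPM in Abx_Morphine, below all H2O_Saline libraries (2554 to 2993). With the replicate number as a block, 7 members passed.

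Genes of the circadian clock rose. The clock is a feedback loop in which PER and CRY proteins repress the activators CLOCK and BMAL1, which bind the E-box CACGTG. Of 19 genes tested, 9 rose and 0 fell, against 13.3% of all genes rising. The medians were 0.25 for the total effect, 0.07 for antibiotics alone, 0.01 for morphine alone and 0.10 for their sum. The hour at which tissue was taken is not given in the labels used here. The E-box, searched as these 6 letters (the same on both strands), occurred in 5 of 17 promoters of the list in 2349 of 32851 promoters in all (7.15%) and in 1086 of 10938 first promoters of the genes tested (9.93%). It was in 3 of 19 promoters of the glucocorticoid list and in 2 of 14 of the microglial list. The promoters of the 2 members with the smallest p, with E-boxes in capitals, are shown because they rose together. Per1 has 2 promoters in the table and the first is printed. Cry1 carries the E-box and rose too. Bhlhe41 and Tef carry it and were not called, while Cry2, Per3, Clock and Nr1d2 rose without it in this window. A link between the E-box and the rise was not tested.
Ciart: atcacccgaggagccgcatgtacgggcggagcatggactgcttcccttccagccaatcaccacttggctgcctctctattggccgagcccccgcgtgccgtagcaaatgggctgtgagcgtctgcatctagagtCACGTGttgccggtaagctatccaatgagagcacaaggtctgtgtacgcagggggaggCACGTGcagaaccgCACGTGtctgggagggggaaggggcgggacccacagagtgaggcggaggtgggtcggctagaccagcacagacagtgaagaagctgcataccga
Per1: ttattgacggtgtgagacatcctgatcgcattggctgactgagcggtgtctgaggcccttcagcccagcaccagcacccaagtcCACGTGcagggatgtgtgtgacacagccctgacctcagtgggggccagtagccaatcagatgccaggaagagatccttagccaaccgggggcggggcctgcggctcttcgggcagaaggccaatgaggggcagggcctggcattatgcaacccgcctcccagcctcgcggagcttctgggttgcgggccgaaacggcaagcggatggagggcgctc

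Ciart, a repressor of the clock (chr3:95882179-95882478, minus strand), has 3 E-boxes in this window, none overlapping, and was at 33.9, 40.1, 34.2, 33.5 and 33.6 CPM in Abx_Morphine. Against 19.6, 20.7 and 21.9 CPM (lowest, median, highest) in H2O_Saline the total effect was 0.77 ± 0.09 (adjusted p = 3.68e-07), and each single effect was 0.32 (adjusted p = 0.126 for antibiotics and 0.0963 for morphine). Per1 (chr11:69098699-69098998, plus strand), which belongs to the glucocorticoid list too, has 1 E-box here and was at 227, 261, 212, 240.0 and 194 CPM against 130.3, 142 and 160.0. It rose by 0.67 ± 0.12 in total (adjusted p = 0.000225). The cryptochrome gene Cry2 rose by 0.33 and the repressor gene Bhlhe40 by 0.43. Summed over the list, Abx_Morphine lay at 2447 to 2594 CPM and H2O_Saline at 2076 to 2247, without overlap.

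Among immediate early genes, which neurons switch on within minutes of activity, 5 of 20 rose (25%) and 0 fell, near the 27.1% of all genes called, with medians of 0.47 for the total effect, 0.21 for antibiotics alone, 0.22 for morphine alone and 0.47 for their sum. The nuclear receptor gene Nr4a1 was at 139, 162, 122, 141 and 125 CPM against 36.3, 51.5 and 112 and rose by 1.17, while morphine alone gave 0.93 (adjusted p = 0.163). Nr4a3 rose by 1.44, the zinc-finger gene Egr2 by 1.30 and the AP-1 gene Fosl2 by 0.71. Fos did not pass (0.88 ± 0.38, adjusted p = 0.0841). Calls in the list numbered 3 with tissue covariates (median 0.15), 2 with the replicate block, and 8 without H2O_Saline 5.

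**Figure D3:**
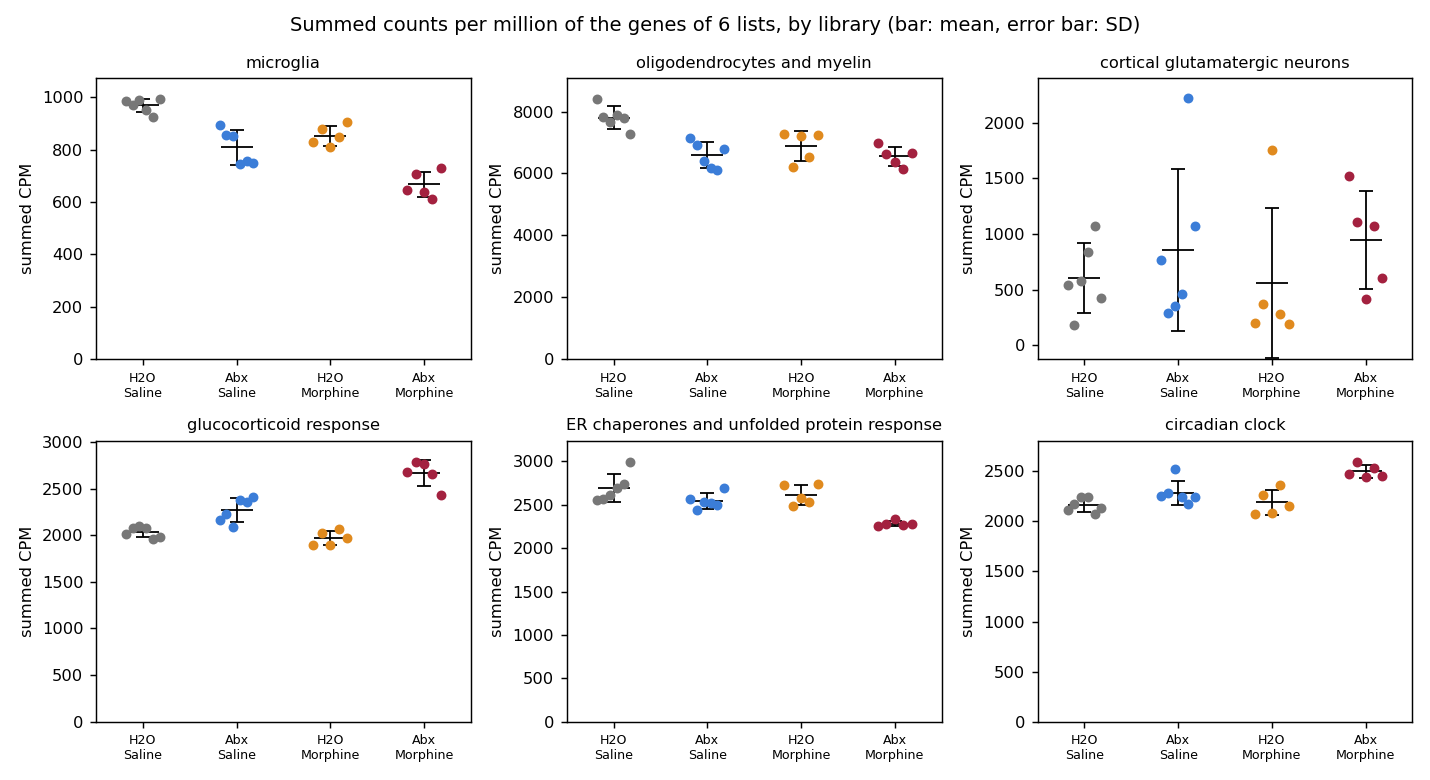
Summed CPM (y axis) of the genes of 6 lists in each library (points) of the 4 conventional groups, with the group mean (bar) and SD (error bar). Abx_Morphine lay wholly below H2O_Saline for microglia, oligodendrocytes and ER chaperones, and wholly above it for the glucocorticoid and clock lists, and the cortical list overlapped between all groups.

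Microglial genes fell nearly throughout. Of 20 identity genes, 18 fell and 0 rose against 13.8% of all genes falling, with medians of -0.57 for the total effect, -0.25 for antibiotics alone, -0.20 for morphine alone and -0.49 for their sum. Summed over the list, H2O_Saline libraries held 925 to 992 CPM, Abx_Saline 746 to 895, H2O_Morphine 808 to 904 and Abx_Morphine 612 to 730.2. The double-treated libraries were below every untreated library and below every library of either single treatment. In bulk tissue, fewer cells of a type and less of its RNA per cell cannot be told apart. Olfml3, a secreted protein marking microglia in the brain, had the smallest p of all genes. It was at 7.12, 11.7, 7.12, 6.67 and 12 CPM in Abx_Morphine against 27.6, 29.1 and 30.9 in H2O_Saline, a change of -1.71 ± 0.13 (adjusted p = 2.75e-10). Antibiotics alone lowered it too (-0.80 ± 0.12, adjusted p = 0.000807) and morphine alone gave -0.25 (adjusted p = 0.324). The total was lower than the sum by 0.66, which did not pass (adjusted p = 0.157).

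Fcrls, an Fc receptor-like gene of microglia, was at 16.1, 19.4, 10.4, 14.2 and 15.9 CPM against 36.9, 40.4 and 41.9 and changed by -1.40, with -0.55 for antibiotics (adjusted p = 0.022) and -0.21 for morphine alone. Cx3cr1, the receptor for the neuronal chemokine fractalkine, was at 51.5, 53.6, 48, 44.6 and 57.8 CPM, below all untreated libraries (78.6, 82.3 and 85.1), and changed by -0.68 ± 0.09 (adjusted p = 2.07e-06). Itgam, which encodes CD11b, changed by -0.80. The related leukocyte integrin gene Itgad went the other way: it was at 3.16, 2.71, 3.64, 3.42 and 2.52 CPM in Abx_Morphine and at most 0.708 CPM in H2O_Saline, with 3.72 as the fitted change, which depends on the prior count since some untreated libraries held no read of it. Cd180, a Toll-like receptor partner, fell by 1.37 on the log2 scale.

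Interferon and antigen presentation genes and lysosomal genes, several of which microglia express, also fell, more often than the 13.8% of all genes that fell. Of 19 interferon and antigen presentation genes, 7 fell and 0 rose, among them the ubiquitin-like Isg15 (-1.17) and the immunoproteasome gene Psmb8 (-0.62). Their medians were -0.43 for the total effect, -0.13 for antibiotics alone, -0.12 for morphine alone and -0.17 for their sum. That count was 3 without Abx_Morphine 3 and 4 without Abx_Morphine 5, and Psmb8 passed no longer without H2O_Saline 8, Abx_Morphine 1 or Abx_Morphine 3. Of 24 lysosomal genes, 8 fell and 1 rose. Hexa, a subunit of β-hexosaminidase, was at 40.0, 49.1, 39, 44.4 and 49.4 CPM against 66.7, 75.7 and 78.1 and changed by -0.74 ± 0.06 (adjusted p = 7.85e-10), and it had fallen with antibiotics alone (-0.27, adjusted p = 0.0449), as had the peptidase gene Tpp1 (-0.22, and -0.34 in total). Among 11 innate immune signalling genes tested, 3 were called (27.3%), near the 27.1% of all genes called. Il1r1 and Tlr7 rose (both 0.73) and Tgfb1, a cytokine that microglia need, fell by 0.44.

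Genes of oligodendrocytes and of their precursors fell. Of 20 genes of mature cells and myelin, 10 fell and 0 rose, against 13.8% of all genes falling. The medians were -0.41 for the total effect, -0.35 for antibiotics alone, -0.17 for morphine alone and -0.51 for their sum. Klk6, a protease of mature oligodendrocytes, was at 1.71, 2.47, 2.14, 1.63 and 2.95 CPM against 4.92, 5.85 and 10.5 and changed by -1.64 ± 0.23 (adjusted p = 6.60e-06). The gap junction gene Gjb1, whose channels link layers of myelin, changed by -1.14. Ugt8a, which makes the myelin lipid galactocerebroside, changed by -0.96. The abundant myelin gene Mbp, named outside the rule after its values were seen, did not pass (-0.18). Klk6 and Gjb1 had passed with antibiotics alone (-1.04 and -0.71).

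Among 12 genes of oligodendrocyte precursors, 6 fell and 1 rose, against 13.8% of all genes falling and 13.3% rising. The lineage factors Olig2 and Olig1 changed by -0.80 and -0.55 and the receptor gene Gpr17 by -0.45, which gave -0.03 with antibiotics and 0.01 with morphine alone. Vcan, a proteoglycan of the extracellular matrix, rose instead, from 26.1, 31 and 31.8 CPM (lowest, median, highest) to 51.3, 46.9, 46, 47.5 and 45.9 CPM (0.67 ± 0.09, adjusted p = 5.97e-06). Astrocyte genes were mixed, with 8 of 20 falling and 2 rising, against the same 13.8% and 13.3% of all genes. Besides Fabp7, described with the departures from additivity, the falls included the calcium-binding S100b (-0.63), the membrane protein gene Mlc1 (-0.31) and the amino acid carrier gene Slc7a10 (-0.48). Etnppl, an astrocytic enzyme of ethanolamine metabolism outside that list, rose by 1.77, from 16.9 ± 7.51 CPM (SD, n = 6) to 57.9 ± 16 (SD, n = 5).

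Vessel genes fell. Of 20 endothelial genes, 12 fell and 2 rose, against 13.8% of all genes falling and 13.3% rising, and with the replicate block the counts were 7 and 2. The medians were -0.27 for the total effect, -0.15 for antibiotics alone, -0.17 for morphine alone and -0.33 for their sum. Emcn, a sialomucin of capillaries and veins, was at 5.5, 5.33, 3.88, 4.5 and 6.25 CPM against 8.92, 9.8 and 10.6 and changed by -0.94 ± 0.14 (adjusted p = 1.15e-05). The thyroid hormone carrier gene Slco1c1 changed by -0.52 and the TGF-β co-receptor gene Eng by -0.59. Mfsd2a, a lipid carrier of the blood-brain barrier, rose (0.59). Among 12 mural cell genes 5 fell and 0 rose, against the same 13.8% of all genes falling. Vtn, vitronectin of pericytes, was at 49.3, 51.3, 44.9, 43.2 and 54.2 CPM against 78.4, 80.3 and 94.6 (-0.78 ± 0.11, adjusted p = 1.21e-05), Kcnj8 changed by -0.57 and Des by -0.91. Of 8 erythroid genes only 2 passed the low-count filter, and both fell, Alas2, which starts haem synthesis in red cells, by 1.68 on the log2 scale (1.26, 2.01, 1.03, 2.87 and 2.95 CPM against 3.42, 5.6 and 11.2).

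Medium spiny neuron and opioid genes gave few calls, and interneuron genes gave 4. Of 20 medium spiny neuron genes 1 fell, the adenosine receptor gene Adora2a of D2-type neurons, and 0 rose, with medians of -0.27 for the total effect, -0.24 for antibiotics alone, -0.23 for morphine alone and -0.47 for their sum. Adora2a was at 181, 246, 207, 192 and 257 CPM against 293, 356 and 444 (-0.73 ± 0.24, adjusted p = 0.0255). With tissue covariates it no longer passed (-0.32, adjusted p = 0.273) and the list's median was 0.04. Its call was lost as well without H2O_Saline 5 or Abx_Morphine 1, 3 or 4. Neither dopamine receptor gene passed: Drd1a changed by -0.11 ± 0.21 and Drd2 by -0.46 ± 0.23. Of 12 interneuron genes 4 fell (33.3%) and 0 rose, against 27.1% of all genes called, including Slc18a3, the vesicular acetylcholine carrier (-0.82), and Th, tyrosine hydroxylase (-0.68), and 1 was called with tissue covariates. The count of 4 was 2 without any 1 of H2O_Saline 3, 5, 6 or 8 or Abx_Morphine 3, 4 or 5.

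Of 8 opioid receptor and peptide genes 0 passed in edgeR for the total effect (3 at an unadjusted p under 0.05), against 27.1% of all genes called in that fit. DESeq2 called 0, limma voom 4 and the fit of the 11 libraries alone 5. Oprm1, the µ-opioid receptor that morphine binds, was at 4.78, 5.1, 6.25, 5.82 and 5.61 CPM in Abx_Morphine and 2.83, 3.47 and 4.75 CPM (lowest, median, highest) in H2O_Saline, all above that range but with 0.59 ± 0.26 (adjusted p = 0.0957). In the H2O_Morphine libraries it was at 7.99, 8.38, 4.45, 8.47 and 8.86 CPM, 1.05 ± 0.26 with morphine alone (adjusted p = 0.0794), and the lowest of these was H2O_Morphine 4. The total was lower than the sum by 0.67 (SE 0.37), which did not pass (adjusted p = 0.68). The peptide precursor genes Penk and Pdyn gave -0.27 ± 0.16 and -0.45 ± 0.20.

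Of the markers of tissue that borders the accumbens, the septal list did not overlap between Abx_Morphine and H2O_Saline, while the cortical, ependymal and hypothalamic lists did. The summed cortical list ran from 411 to 1526 CPM in Abx_Morphine and from 180.1 to 1068 in H2O_Saline, with 3 of 5 libraries above the untreated range. Of its 14 genes 0 were called in edgeR, against 27.1% of all genes (0 at an unadjusted p under 0.05, 0 called by DESeq2 and 1 by limma voom). The septal list was above the untreated range in 5 of 5 libraries (101 to 134 against 80.3 to 97.2 CPM). In this list 4 of 8 genes rose, against 13.3% of all genes rising, including the transcription factor genes Zic1 (0.77) and Zic2 (0.73). That count of 4 was 2 without H2O_Saline 5 or Abx_Morphine 4. The ependymal and choroid plexus list was above it in 3 of 5 (60.5 to 93.2 against 50.4 to 74.9 CPM), where 1 of 11 genes rose (Kl, 0.69), and 1 of 8 hypothalamic genes fell (Cartpt, -0.67). With the cortical, hypothalamic and septal levels as covariates, 3138 genes were called for the total effect, and neither Zic1 nor Zic2 passed. Both are members of the septal list that forms a covariate, so their loss is partly built in. With these covariates the microglial median was -0.47, the glucocorticoid median 0.41 and the mural median -0.24.

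The glutamate, GABA, vesicle, potassium channel and adhesion lists had shares of calls below the 27.1% of all genes. Of 28 glutamate receptor and scaffold genes 3 rose and 4 fell, of 21 GABA genes 1 rose and 3 fell, of 22 vesicle genes 1 each way, and of 28 potassium channel and 20 adhesion genes 1 rose in each. The 4 GABA calls were 1 without Abx_Morphine 1 or 4, and 2 without any 1 of H2O_Saline 3, 4, 5 or 6 or Abx_Morphine 3 or 5. Grin2a, an NMDA receptor subunit, rose by 0.95 and the metabotropic receptor gene Grm3 fell by 0.70, as did the GABA-A subunit gene Gabra2 (-0.65). Of 12 serotonin receptor genes Htr3a rose (0.97), and 1 fell. Neuregulins are growth factors that signal through ERBB receptors, and 3 of 8 such genes rose and 0 fell. Erbb4, their receptor on interneurons, was at 38, 38.2, 47.4, 39.1 and 38.7 CPM against 19.7, 23 and 23.7 (0.84 ± 0.17, adjusted p = 0.000416), with 0.81 for morphine alone (adjusted p = 0.066) and 0.26 for antibiotics alone. Nrg3 rose by 0.74, with nearly equal single effects (0.35 and 0.36). In the neurotrophin list 1 of 7 rose, the BDNF receptor gene Ntrk2 (0.24), whose call was lost with tissue covariates and with a GC and length correction.

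Genes of oxidative phosphorylation fell by small amounts. Of 71 tested, 32 fell and 0 rose, against 13.8% of all genes falling. The medians were -0.16 for the total effect, -0.05 for antibiotics alone, -0.14 for morphine alone and -0.19 for their sum. Atp5d, a subunit of ATP synthase, changed by -0.35 ± 0.06 (adjusted p = 7.84e-05) and Uqcr11 of complex III by -0.29. These mRNAs are short, and fold changes rose with transcript length across genes (Spearman rho 0.273 for the total effect over 14494 genes). The rho was 0.426 for morphine alone, 0.185 for antibiotics alone, 0.348 for their sum and -0.122 for the departure from the sum. Corrected for length and GC content, 14 genes of the list fell and 4 rose with a median of -0.05, and Uqcr11 no longer passed (-0.07, adjusted p = 0.285). With the replicate block 21 fell. Cholesterol genes were mixed: of 23, 6 fell and 1 rose (30.4% called), near the 27.1% of all genes called. Lss, lanosterol synthase, was at 0.54 and the later enzymes Ebp and Dhcr7 at -0.53 and -0.29. With tissue covariates 10 fell.

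The lists of routes by which gut bacteria are known to signal are short, and 27.1% of all genes were called. The aryl hydrocarbon receptor senses tryptophan products of bacteria, and 3 of 5 of its genes tested rose, Tiparp, a target that represses it, by 0.89 ± 0.18 (adjusted p = 0.000502) and Ahr itself by 0.46. With tissue covariates 1 passed. Antibiotics alone gave 0.45 for Tiparp and morphine alone 0.58. Of 7 tryptophan and kynurenine genes 0 passed in edgeR (1 at an unadjusted p under 0.05, 0 called by DESeq2 and 2 by limma voom). In the list of 6 genes for short-chain fatty acid sensing and class I deacetylases 1 fell, the monocarboxylate carrier gene Slc16a7. No deacetylase of that list was called. Of 24 genes of the histone acetylation machinery, 6 rose and 2 fell, including the acetyl-histone reader gene Brd2 (0.24), the deacetylase gene Sirt1 (0.56) and Hdac5 (-0.30). That count was 16 on the 22 conventional libraries. Of 15 collagen and meningeal genes 2 rose, Col5a1 (1.02) and Col6a1 (0.46), and 0 fell, a share of 13.3% that equals the share of all genes that rose. The Col6a1 call (adjusted p = 0.0381) was lost in 8 of 23 alternatives, namely with the replicate block (adjusted p = 0.114) and without any 1 of H2O_Saline 3, 5, 8 or 9 or Abx_Morphine 2, 3 or 4.

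Further genes with large total effects belonged to none of the lists. Among those that rose were Gabrr2, a ρ subunit of GABA-A receptors (2.47, 5.5, 2.71, 4.35, 2.64 and 4.96 CPM against 0.354, 0.707 and 1.11), the chemokine gene Ccl17 (2.20), the calcium pump gene Atp2c2 (2.10), the secreted phospholipase gene Pla2g3 (1.77) and Greb1l (1.57). Bmp3, a BMP family ligand, and Prdm12, a transcription factor, rose by 1.95 and 1.56 but only 3 of 5 libraries exceeded the untreated range in each. The Bmp3 call was lost without any 1 of H2O_Saline 3, 4, 5 or 9 or Abx_Morphine 1, 2 or 4, and that of Prdm12 without any 1 of H2O_Saline 3, 4, 5 or 9 or Abx_Morphine 3, 4 or 5. Prdm12 gave 0.37 with tissue covariates (adjusted p = 0.625). Among those that fell were the histone gene Hist1h2be (-1.88), whose near-identical copies share reads so that its level is uncertain, the adhesion gene Ninj2 (-1.58), the peroxidase gene Gpx6 (-1.41), the growth factor gene Fgf3 (-1.36), the filament gene Bfsp2 (-1.35), the spindle-orienting Insc (-1.27) and Gbp3, an interferon-induced GTPase (-1.29). For Bfsp2 the single effects were -0.58 (antibiotics) and -0.54 (morphine), and for Cd180 -0.60 and 0.02, against a total of -1.37.

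The genes whose total effect differed from the sum of the single effects were mostly ones that hardly moved with either treatment alone. Fabp7, a fatty acid carrier of astrocytes and radial glia, had the smallest p. It was at 9.92, 9.89, 11.7, 9.7 and 13.1 CPM in Abx_Morphine. The lowest, median and highest were 23.7, 25.3 and 29.4 CPM in H2O_Saline and 17.1, 21.9 and 27.4 in Abx_Saline, and the H2O_Morphine libraries held 25, 31.1, 26.5, 34.8 and 26.7 CPM. All 5 double-treated libraries lay below every library of the other 3 groups, and in each of the 16 genes, chosen for their departure, the double-treated libraries lay apart in this way. Its total effect was -1.27 ± 0.12 against a sum of -0.11 ± 0.18, a difference of -1.16 ± 0.16 (adjusted p = 0.000466).

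Wnt10b, a secreted WNT ligand, was at 6.67, 4.41, 6.73, 6.13 and 4.31 CPM in Abx_Morphine and at no more than 1.67 CPM in any library of the other 3 groups. The single effects were -0.21 and -0.14, the total 2.11 ± 0.23, and the total exceeded the sum by 2.46 ± 0.37 (adjusted p = 0.000721), the largest departure of the 16. Cdkn1a, the cell cycle inhibitor p21 and a known glucocorticoid target, was at 53, 38.6, 63.2, 45 and 33.8 CPM, again above all other libraries of these groups. It gave 0.09 with antibiotics, -0.35 with morphine and 0.997 ± 0.13 with both, a departure of 1.25 ± 0.19 (adjusted p = 0.000721). Only Fabp7, Wnt10b and Cdkn1a of the 16 passed under all 34 alternatives.

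**Figure D4:**
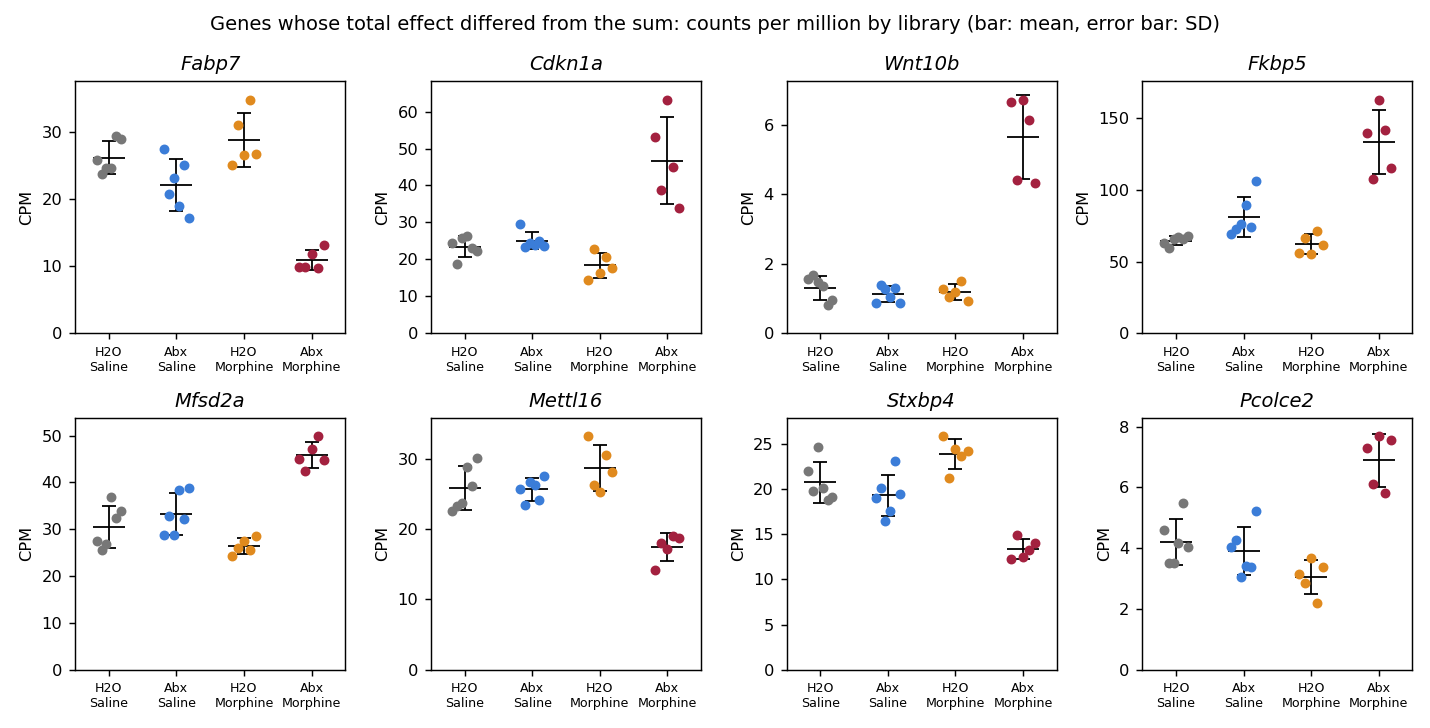
CPM (y axis) of 8 genes with a departure from additivity in each library of the 4 conventional groups (points), with the group mean (bar) and SD (error bar). The Abx_Morphine libraries lie apart from the 3 other groups, above them for Cdkn1a, Wnt10b, Fkbp5, Mfsd2a and Pcolce2 and below them for Fabp7, Mettl16 and Stxbp4.

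Mfsd2a, which carries lysophospholipids with omega-3 fatty acids across brain endothelium, was at 45, 42.4, 47.1, 49.8 and 44.8 CPM in Abx_Morphine against 25.5, 29.9 and 36.8 in H2O_Saline. Its total of 0.59 ± 0.09 exceeded a sum of -0.08 by 0.67 ± 0.12 (adjusted p = 0.0184). Pcolce2, an enhancer of procollagen processing, exceeded its sum by 1.27 (total 0.71, adjusted p = 0.0212). Fkbp5 exceeded its sum by 0.78 ± 0.17, close to the threshold (adjusted p = 0.047), and passed in 15 of 34 alternatives, where the adjusted p ran from 0.00157 to 0.127. Plin4, with the larger total, exceeded its sum by 1.21 ± 0.58, which did not pass (adjusted p = 0.609).

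Besides Fabp7, 8 genes had a total below the sum. Mettl16, an RNA methyltransferase, was at 14.2, 18.1, 17.2, 19.1 and 18.7 CPM against 22.6, 25 and 30.1 in H2O_Saline and departed by -0.70 ± 0.12 (total -0.56, sum 0.14, adjusted p = 0.0109). Stxbp4, a syntaxin-binding protein, departed by -0.73 ± 0.13, with values in Abx_Morphine of 12.3, 14.9, 12.5, 13.3 and 14.1 CPM against 18.8, 20.0 and 24.7. Pycrl, an enzyme of proline synthesis, departed by -0.59, Tmco3, a membrane protein gene, by -0.42 and Lasp1, an actin-binding protein gene, by -0.43. The remaining 5 fell outside the rule for named genes and are named because they complete the 16: AI854517 (0.68), Dbndd2 (0.40), Arhgef19 (-0.73), Fer1l5 (-0.61) and Tufm (-0.40), a mitochondrial elongation factor. The count of 16 fell to 3 without H2O_Morphine 2, to 6 without H2O_Saline 3, Abx_Morphine 1 or Abx_Morphine 3, and to 9 without Abx_Saline 1, H2O_Morphine 3 or H2O_Morphine 6, and it was 25 without Abx_Morphine 2.

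**Figure D5:**
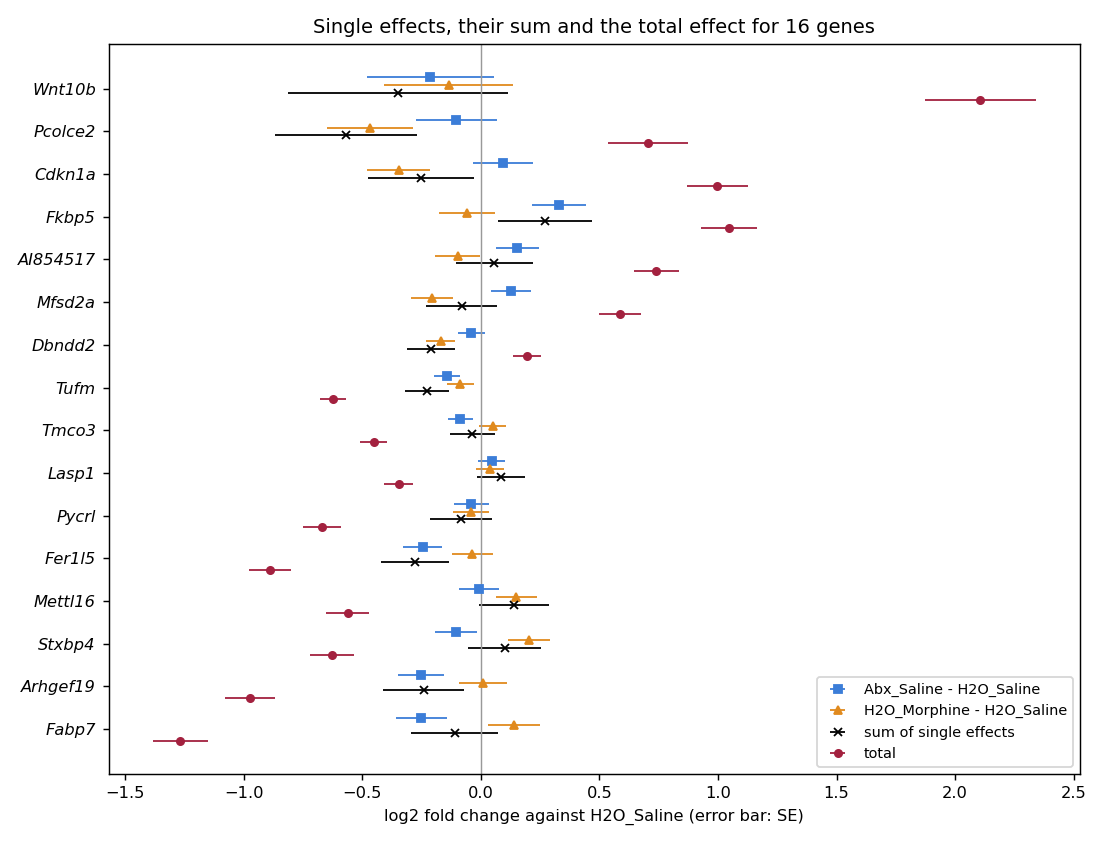
Log2 fold change against H2O_Saline (x axis, error bar: SE) of the 16 genes whose total effect differed from the sum, for antibiotics alone, morphine alone, their sum and both together. Totals lie outside the sum on both sides of 0, from Fabp7 at -1.27 to Wnt10b at 2.11, while the single effects stay between -0.47 (Pcolce2, morphine) and 0.33 (Fkbp5, antibiotics).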

How the data were processed

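Bulk RNA-seq libraries of nucleus accumbens were grouped by their labels into 6 groups, of which 4 (22 libraries of conventional mice) enter the comparisons. Per the labels' protocols, RNA was extracted with TRIzol, turned into cDNA with a SMARTer kit, which amplifies cDNA, and made into indexed libraries. The submitters' processing notes name FastQC, STAR 2.4.0 and edgeR. No source used here names the counting tool, the strand setting, the genome build or the annotation. The authors deposited raw counts per gene for 24053 genes. A second table deposited by the authors holds signal values for 10871 genes, each a count divided by 1 constant per library, and was used only to restore gene names that a spreadsheet had turned into dates (19 of 27 restored, the other 8 left out). Reads given to no gene were 20.6% to 26.4% per conventional library and stayed out of all totals.

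Counts were fitted with edgeR 4.0.16 in R 4.3.3: genes kept by filterByExpr at a minimum count of 10 (14602), TMM factors, and 1 quasi-likelihood fit of 6 group means over all 33 libraries, with 27 residual degrees of freedom. P-values were adjusted by Benjamini-Hochberg over all genes, with a threshold of 0.05. Levels are CPM, and log2 values in the text are fold changes with their SE. The sum is Abx_Saline plus H2O_Morphine minus 2 times H2O_Saline. The script was tested on simulated data. Promoters are from RefSeq, GRCm38.p6, and 10938 of the 14602 genes had one. Gene length and GC content were taken from GENCODE transcripts by symbol for 14494 genes (99.3%).

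Named genes are, by rule, the 14 largest changes in each direction with an adjusted p under the threshold (mean of 2 CPM or more in either group), without gene models, pseudogenes, ribosomal or mitochondrial genes, then up to 10 genes by smallest p for the departure from the sum, up to 4 called members of each list, and Oprm1, Drd1a, Drd2, Penk, Pdyn, Fkbp5, Sgk1 and Fos. The groups, lists and named genes were chosen with earlier results of these data known. The hormone genes of the pituitary list are not described, since 2 of 8 passed the filter and neither was called.

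Alternatives were DESeq2 1.42.0, limma 3.58.1 (voom with sample weights), RLE and upper-quartile factors, other low-count filters, fewer libraries, a replicate block, tissue covariates, a length and GC correction, and leaving out each library. Libraries of the 4 groups with the same replicate number did not deviate together (mean correlation of deviations 0.00107 over 25 pairs, range -0.473 to 0.357), so the numbers were not taken as pairs. Within each of the 4 groups no library was found to be deposited 2 times. There log2 CPM correlated at 0.974 to 0.993, and counts differed by more than sampling noise in all 50 pairs (chi-square per degree of freedom 3.10 to 21.9). Libraries of different groups and germ-free libraries were not compared in this way. Some genes that the rule for named genes selects are not reported here.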

Additional observations from a re-analysis of the deposited data

Results flagged for a closer look

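The test for 1 library standing far from its group was applied to the named genes and the summed list levels in Abx_Morphine and H2O_Saline, 326 groups of values in all, and marked 17 of them (5.21%); chance marks about 1 in 20. In Abx_Morphine, library 2 was low for Greb1l (13.3 CPM, the others 23.4 to 25.8) and high for Fgf3 (4.48 CPM, the others 1.19 to 1.94) and Ciart (40.1 CPM, the others 33.5 to 34.2). Library 1 was low for Xbp1 (59.0 CPM, the others 72.1 to 77.0) and high for Grin2a (28.9 CPM, the others 23.6 to 24.3) and for Mbp (2664 CPM) and the summed corticosteroid receptor and CRH list (185 CPM). Library 3 was high for Erbb4 (47.4 CPM, the others 38.0 to 39.1), library 4 low for the interferon and antigen presentation list (172 CPM) and library 5 high for the aryl hydrocarbon list (79.8 CPM).

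In H2O_Saline, library 8 was high for Itgad (0.708 CPM, the others at most 0.250), library 5 for Rasd1 (7.00 CPM, the others 5.12 to 5.81) and library 9 for Eng (46.8 CPM, the others 38.1 to 41.1). Library 4 was low for Erbb4 (19.7 CPM, the others 22.3 to 23.7), potassium channels (2629 CPM) and neurotrophins (1238 CPM). Library 6 was high for the pituitary hormone list (3.48 CPM, the others 0.409 to 0.848).

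The morphine effect differed between antibiotic and water mice, by the test of that difference, in the 16 genes whose total effect departed from the sum. On the log2 scale the difference was -1.16 for Fabp7, 1.25 for Cdkn1a, 2.46 for Wnt10b, -0.70 for Mettl16, -0.73 for Stxbp4, 0.67 for Mfsd2a, -0.59 for Pycrl, -0.42 for Tmco3, 1.27 for Pcolce2, -0.43 for Lasp1, 0.68 for AI854517, -0.73 for Arhgef19, -0.40 for Tufm, -0.61 for Fer1l5, 0.40 for Dbndd2 and 0.78 for Fkbp5. For Wnt10b the morphine effect was -0.14 in water mice and 2.32 in antibiotic mice, for Fabp7 0.14 and -1.02, and for Cdkn1a -0.35 and 0.90.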

How the results depend on the processing

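The 3961 calls of the total effect ranged from 2918 to 5496 over all alternatives except limma voom, which gave 6186, and 3115 (without Abx_Morphine 1) to 3800 (without Abx_Morphine 2) when 1 library was left out. The 17 calls for antibiotics alone were 100 with DESeq2, 187 with limma voom, 210 on the 22 conventional libraries, 53 on the groups of the contrast, 4 with tissue covariates, 40 with the length and GC correction, 6 without Abx_Saline 5 and H2O_Morphine 4 together, and 4 (without H2O_Saline 5 or Abx_Saline 4) to 31 (without Abx_Saline 3) when 1 library was left out. The 0 calls for morphine alone were 332 with DESeq2, 1314 with limma voom, 972 on the 22 libraries, 989 on the groups of the contrast, 2 without the same 2 libraries, and 0 to 2 (without H2O_Morphine 4) when 1 was left out. For the sum, these settings gave 180, 671, 629, 402 and 2, the length and GC correction 7, and omissions 0 to 17 (without Abx_Saline 1). For the departure from the sum, 16 in the main analysis, they gave 67, 172, 59 and 59, the correction 40, and omissions 3 to 25. Leaving out Abx_Saline 5 and H2O_Morphine 4 was chosen after seeing the data. The causes of these differences were not tested.

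With the replicate number as a block, the total effect had 2918 calls, antibiotics alone 4, and the departure from the sum 9. The numbers do not pair the libraries, and among the 3 numbers shared by Abx_Morphine and H2O_Saline the deviations correlated at -0.106 to 0.00596.

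With tissue covariates Drd1a turned to 0.18 and Penk to 0.064 in the total effect, neither passing the threshold, and the calls of Adora2a, Prdm12, Fgf3, Egr2, Th, Zic1, Zic2, Ahr, Il1r1, Ntrk2 and Cartpt were lost. Zic1 and Zic2 (septal list) and Cartpt (hypothalamic list) are part of the covariates, so their losses there are partly built in. With the replicate block the calls of Bmp3, Prdm12, Stip1, Nr4a1, Egr2, Des, Kl, Cartpt and Dbndd2 were lost. Departures from the sum passed in 34 of 34 alternatives for Fabp7, Wnt10b and Cdkn1a, in 33 for Mfsd2a, 32 for Mettl16 and Stxbp4, 29 for Pycrl, 27 for Pcolce2 and AI854517, 26 for Tmco3, 23 for Lasp1, 21 for Tufm and Arhgef19, 18 for Fer1l5, 16 for Dbndd2 and 15 for Fkbp5. Group sizes of 5 and 6 and depths of 9357187 to 15330747 reads limit what can be seen in genes of a few CPM.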
